A study of Mus musculus with 6 samples.

Results

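Activin, Nodal and TGF-beta are secreted ligands of one family. This account follows 9 of their pathway genes in mouse embryonic stem cells: the ligand genes Inhba, Inhbb and Nodal, the co-receptor gene Tdgf1, the receptor gene Acvr2b, and the inhibitor genes Lefty1, Lefty2, Fst and Smad7. They are 9 of the 27179 Entrez identifiers in the deposited count table. The 9 genes were selected on pathway membership with results of the R783H against WT comparison already known, so their differences are given as a description with SE and without a p-value. A further list of 56 other genes of the pathway, grouped by role, was also drawn up with results of this comparison known; its genes carry p-values from the fit of all genes, which are not independent evidence.

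The cells were embryonic stem cells of the ES-E14TG2a background, kept on gelatin in medium with fetal bovine serum, LIF and the inhibitors CHIR99021 (GSK3) and PD0325901 (MEK). All carried a FLAG-tagged Trim71, an RNA-binding protein of stem cells. In the 3 R783H libraries (A, B and C) the tagged protein has the R783H change, named in the series title as a cause of hydrocephalus, and in the 3 WT libraries (A, B and C) it does not. The labels do not say how many clones were used, how the alleles were made, or whether the letters stand for separate cultures, so the tests measure the spread between these libraries, which may be technical.

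The ligands bind type II receptors such as the product of Acvr2b, which activate type I receptors, and these phosphorylate Smad2 and Smad3. The activated Smads join Smad4, enter the nucleus and act on genes with DNA-binding partners such as Foxh1. Nodal needs the co-receptor Cripto, encoded by Tdgf1, whereas activins do not. Follistatin (Fst) traps activins, the Lefty proteins block Nodal signalling, and Smad7 blocks the receptors from inside the cell. Nodal, Lefty1, Lefty2 and Smad7 are themselves targets of the pathway in many cells, which closes feedback loops. In mouse embryonic stem cells the pathway is active through ligands that the cells make.

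Promoter sequences from RefSeq (GRCm38.p6, the assembly of mm10) were available for 5 of the 9 genes. The 250 bases before the start are shown for 3 of them whose start is also the end of the annotated gene, because they cover the spread of the responses described next: Inhbb was far lower in R783H, Nodal was higher and Tdgf1 was at the same level. They run 5′ to 3′ along the strand of the gene. Inhbb lies on the minus strand (chr1:119422249-119422498), Nodal on the plus strand (chr10:61417722-61417971) and Tdgf1 on the minus strand (chr9:110946159-110946408). Capitals mark the Smad box, CAGAC or its complement GTCTG.
Inhbb: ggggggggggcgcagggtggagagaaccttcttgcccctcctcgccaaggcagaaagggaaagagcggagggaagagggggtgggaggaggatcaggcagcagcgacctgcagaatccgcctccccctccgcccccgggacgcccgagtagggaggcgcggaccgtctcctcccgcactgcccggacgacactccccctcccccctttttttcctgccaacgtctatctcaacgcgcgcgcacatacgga
Nodal: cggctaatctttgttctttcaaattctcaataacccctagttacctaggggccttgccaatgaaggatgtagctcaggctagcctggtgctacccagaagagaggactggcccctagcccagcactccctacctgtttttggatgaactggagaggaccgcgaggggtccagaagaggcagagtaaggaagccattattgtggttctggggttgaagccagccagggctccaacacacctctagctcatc
Tdgf1: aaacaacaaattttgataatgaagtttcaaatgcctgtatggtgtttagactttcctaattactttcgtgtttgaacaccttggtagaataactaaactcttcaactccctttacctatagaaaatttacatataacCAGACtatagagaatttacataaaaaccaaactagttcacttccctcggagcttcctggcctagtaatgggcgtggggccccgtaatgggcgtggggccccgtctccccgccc

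The Smad box occurred 1 time in the Tdgf1 window and 0 times in the Inhbb and Nodal windows, against 42.2% of 32851 RefSeq windows of this length with at least 1. The Foxh1 motif AATCCACA, or TGTGGATT on the other strand, occurred in 0 of these 3 windows and in 0.718% of all windows. No match of one motif overlapped a match of the other. A letter match is a description of these windows only, and says nothing about distant sites.

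Total counts were 27807385 to 29079670 in the R783H libraries and 20894277 to 25174121 in the WT libraries. Levels are CPM, the count divided by a depth scaled with TMM factors. Trim71 mRNA spanned 129 to 152 CPM (R783H) and 131 to 159 CPM (WT), with overlap; a change of 1 residue is not expected to show in a gene count, so this does not check the labels. R783H B stood apart within its group: its counts differed from those of R783H A and C by 10.6 and 11.6 times sampling noise (chi-square per degree of freedom), where every other pair within a group differed by 1.95 to 4.27 times. Without it the 7 called genes described next kept their calls, in a refit of overlapping libraries that is not separate evidence. The median of the 8 tested was 0.26 in place of 0.29. All 8 stem cell markers were present, with a summed level of 6790 to 6924 CPM in R783H and 6957 to 7041 CPM in WT. Of these 8 genes 2 were called higher (Dppa5a at a log2 fold change of 0.30, Tfcp2l1 at 0.17) and 3 lower (Zfp42 at -0.36, Nanog at -0.23, Pou5f1 at -0.21), sizes like those of several pathway genes below. The called share of 62.5% was near the 64.5% of all tested genes. Fibroblast markers summed to 11.8 CPM in each R783H library and 10.7 to 11.7 CPM in WT, mostly Pdgfrb (means of 9.39 CPM for R783H, 7.59 CPM for WT). Thy1 in that list went the other way (0.194 CPM for R783H, 1.31 CPM for WT), and Twist2 was at 0 in all 6 libraries. Trophoblast markers summed to 39.6 to 47.7 CPM in R783H and 43.9 to 50.2 CPM in WT, mostly Krt8 (means of 36.7 CPM for R783H, 37.0 CPM for WT). Neither Krt8 nor Krt18 was called, whereas Cdx2 was called lower, at 1.86 CPM in R783H against 6.04 CPM in WT. The called share of the 3 tested was 33.3%, beside 64.5% of all tested genes. Tpbpa was at 0 throughout. The 6 primitive endoderm markers summed to 8.81 to 9.72 CPM in R783H and 4.36 to 6.63 CPM in WT. Most of this was Gata4 (means of 6.68 CPM for R783H, 3.19 CPM for WT). Of 4 tested, Gata4 (log2 fold change 1.08, SE 0.15) and Sox17 (1.29, SE 0.29) were called higher. Gata6 (0.87) and Pdgfra (0.37) were higher but not called. The called share was 50%, beside 64.5% of all tested genes. Sox17 was low, at means of 0.897 CPM for R783H and 0.369 CPM for WT. Sox7, too low to be tested, went the other way, with 3, 2 and 4 counts in R783H (A to C) against 15, 9 and 19 in WT (A to C). The part of these markers in the results that follow was not tested. Marker genes other than Tfcp2l1, Pdgfrb, Gata4 and those at 0 were named after their values were seen. In bulk RNA, fewer cells that express a gene and less RNA per cell cannot be told apart.

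Across the 9 genes the picture was uneven. Inhbb stood apart, at 29.6 ± 1.65 CPM in WT and 3.06 ± 0.593 CPM in R783H (SD, n = 3 each), whereas every other detected member differed by less than 2-fold. Lefty1, Fst, Lefty2, Nodal and Acvr2b were higher in R783H, Smad7 was slightly lower, and Tdgf1 was level. Inhba had 0 counts in every library. Of the 8 genes with enough counts to test, 7 passed an adjusted p of 0.05 in edgeR's quasi-likelihood fit of all genes, 5 higher and 2 lower. Of all 14199 tested genes 64.5% were called, 33.5% higher and 30.9% lower, and nothing is read from the members' count since they were chosen with this comparison known. The median log2 fold change of the 8 genes was 0.29, beside 0.03 over all tested genes.

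**Figure D1:**
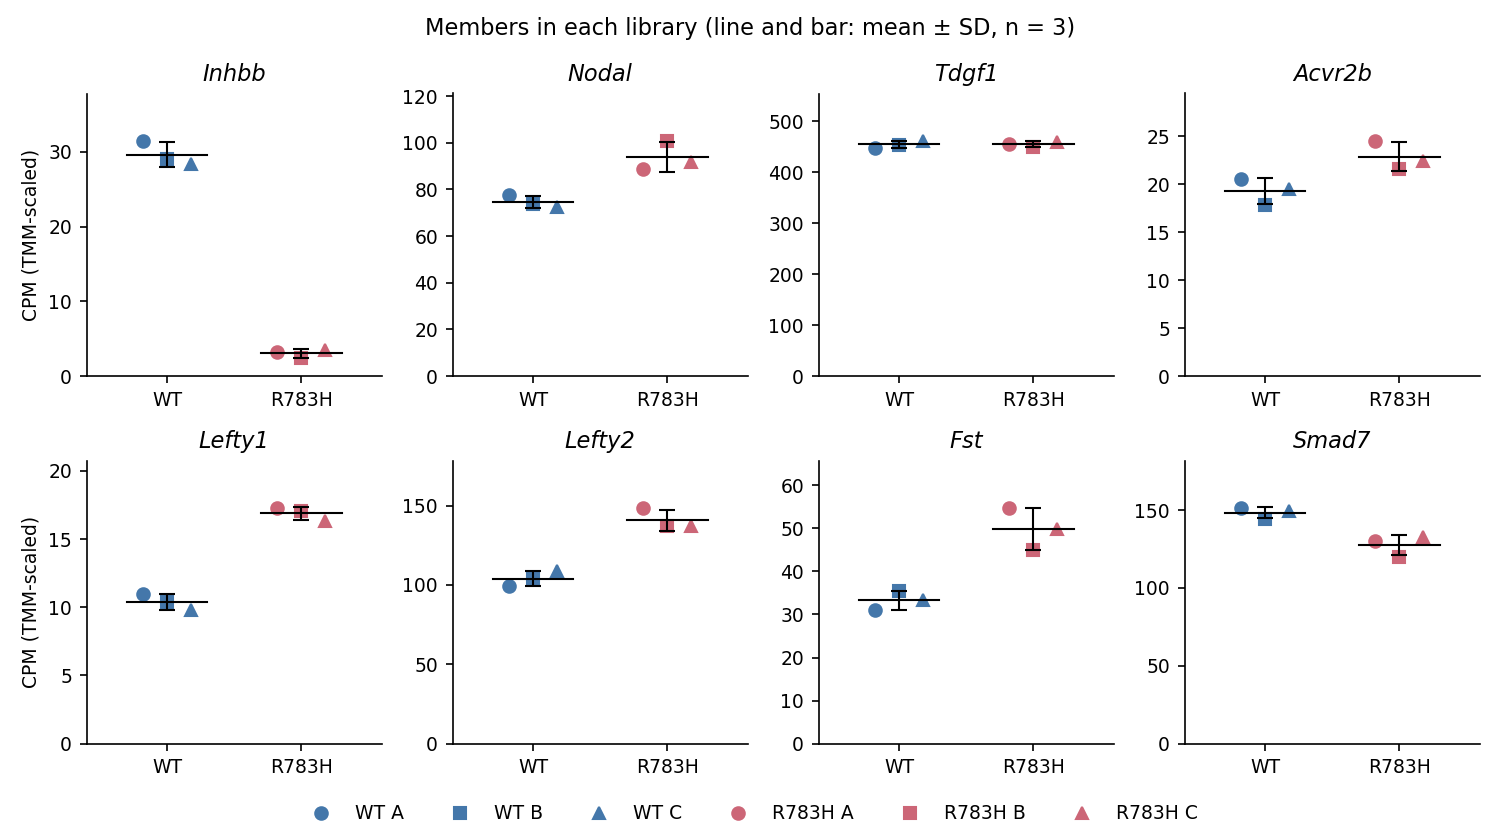
CPM of the 8 detected members in each of the 6 libraries, on linear axes from 0; points are libraries, lines and bars the mean ± SD (n = 3). Inhbb drops from about 29.6 to 3.06 CPM, the points of Tdgf1 overlap, and the other 6 genes show smaller fold differences between the groups. Each panel has its own axis.

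Inhbb encodes the beta-B subunit, which forms activin B as a dimer. The gene lies at chr1:119415463-119422248. It had 636, 712 and 605 counts in WT (A to C), or 31.5, 29.0 and 28.4 CPM. In R783H (A to C) it had 97, 68 and 105 counts, or 3.23, 2.40 and 3.54 CPM. The WT values stayed close together while R783H B was the lowest of all 6, and the lowest WT library was several times above the highest R783H library. The log2 fold change was -3.27 (SE 0.11), a level 9.65-fold lower in R783H. Of the 14199 tested genes, 7 had a more negative log2 fold change.

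Inhba encodes the beta-A subunit of activin A, the other common activin (chr13:16004256-16031609). Its row held 0 counts in all 6 libraries. At these depths a count of 0 allows up to 3 counts, or 0.0998 to 0.149 CPM depending on the library; this limit covers counting error only. No fold change can be given for it. Whether reads of this gene could be assigned to its row depends on the counting annotation, which is not given in the sources used here, so the 0 is uncertain in that respect too.

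Nodal, the ligand that patterns the epiblast, lies at chr10:61417972-61425338. It stood at 77.5, 73.9 and 72.5 CPM in WT (A to C) and at 88.9, 100.9 and 91.7 CPM in R783H (A to C). The groups did not overlap, and R783H B had the highest level of this gene and the lowest of Inhbb. The log2 fold change was 0.33 (SE 0.06). Per kilobase of transcript, the level of Nodal was 5.001, 5.17 and 5.19 times that of Inhbb in WT (A to C). In R783H (A to C) the same ratio was 55.9, 85.5 and 52.5. Inhbb was 9.65-fold lower in R783H and Nodal only 1.26-fold higher, so the ratio mostly restates the fall of Inhbb.

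Tdgf1 encodes Cripto, which holds Nodal to its receptors (chr9:110939608-110946158). It was the most abundant of the 9 genes, at 448, 454 and 462 CPM in WT (A to C) and 456, 449 and 460 CPM in R783H (A to C). The values interleaved, with both the lowest and the highest library in WT. The log2 fold change was 0.000341 (SE 0.04), and its sign turned with the scaling, to -0.021 with RLE size factors, while scaling by library size alone gave 0.08. The Tdgf1 transcript shares 98.8% identity over 512 nt with the pseudogene Tdgf1-ps1, so its count depends on how reads that match both were treated.

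Acvr2b encodes a type II receptor of activins and Nodal (chr9:119401583-119442148). It stood at 20.5, 17.8 and 19.5 CPM in WT (A to C) and at 24.5, 21.6 and 22.5 CPM in R783H (A to C). The groups did not overlap, but R783H B lay only slightly above WT A. The log2 fold change was 0.25 (SE 0.08), the smallest of the 5 increases. Without R783H A or without WT B the gene was no longer called, at 0.18 and 0.19.

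Lefty1 and Lefty2 encode secreted inhibitors of Nodal. They are neighbours on chromosome 1 (chr1:180935022-180938401 and chr1:180893108-180899107), 35.9 kb apart. Lefty1 was at 10.9, 10.4 and 9.80 CPM in WT (A to C) and at 17.3, 17.1 and 16.3 CPM in R783H (A to C). The R783H values lay well apart from WT and close to each other, with a log2 fold change of 0.70 (SE 0.07). With an offset for transcript length and GC content the log2 fold change was 0.86, beside 0.43 for Lefty2.

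Lefty2 was at 99.4, 104 and 109 CPM in WT (A to C) and at 148, 137 and 137 CPM in R783H (A to C). Again the groups did not overlap, and the log2 fold change was 0.44 (SE 0.05). The transcripts of the 2 genes are 91.4% identical over 1157 nt, so reads could be split between them. Summed, the pair stood at 110 to 118 CPM in WT and 153 to 166 CPM in R783H. The sum removes that split only if each shared read was counted once. How shared reads were treated is not given in the sources used here. Per kilobase, Lefty2 was 5.95 to 7.26 times Lefty1 in WT and 5.27 to 5.63 times in R783H, so the ratio did not overlap either. The ratio of Lefty2 to Nodal overlapped between the groups, at 1.09 to 1.27 in WT and 1.15 to 1.41 in R783H.

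Fst encodes follistatin (chr13:114452262-114458989). It was at 30.9, 35.5 and 33.4 CPM in WT (A to C) and at 54.7, 45.1 and 49.9 CPM in R783H (A to C). All R783H libraries were above all WT libraries, with R783H B nearest to them, and the log2 fold change was 0.58 (SE 0.08). The level of this activin trap per kilobase was 1.43, 1.78 and 1.72 times that of Inhbb in WT (A to C) and 24.7, 27.4 and 20.5 times in R783H (A to C). Fst shares exon sequence with an antisense gene, Gm47040, and the use of strand in counting is not given in the sources used here.

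Smad7, the intracellular inhibitor, moved the other way from the secreted inhibitors (chromosome 18, 75367365 to 75395935). It was at 151, 145 and 149 CPM in WT (A to C) and at 130, 120 and 133 CPM in R783H (A to C). The groups did not overlap, and the log2 fold change was -0.22 (SE 0.05). Scaling by library size alone brought it to -0.14.

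**Figure D2:**
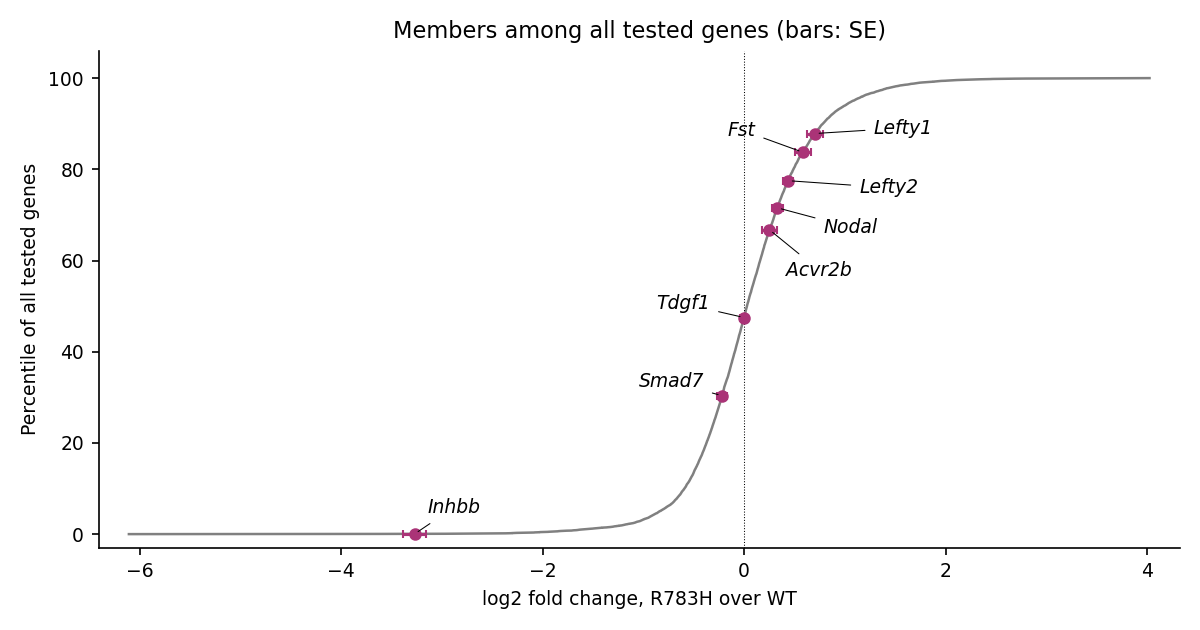
The grey line is the cumulative share (percentile) of all 14199 tested genes against log2 fold change, R783H over WT; points are the 8 detected members with SE bars. Inhbb, at -3.27, sits at the lower tail, and the other 7 genes fall on the central slope between -0.22 and 0.70.

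Placed among all genes, Lefty1 had a higher log2 fold change than 87.9% of tested genes, Fst than 83.7%, Lefty2 than 77.5%, Nodal than 71.6% and Acvr2b than 66.7%. Smad7 was above 30.4% of them. R783H and WT libraries were fully separated in CPM for 7 of the 8 genes, and for 68.1% of all tested genes.

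Apart from the rank given to Tdgf1 by CPM, the levels of the members were compared with each other only after division by transcript length. On this scale of CPM per kilobase, Tdgf1 led in WT at 235.3 ± 3.63 (SD, n = 3), followed by Lefty2 at 42.0 ± 1.86, Nodal at 35.6 ± 1.25 and Smad7 at 34.7 ± 0.808. Fst came next at 11.4 ± 0.777, then Inhbb at 6.96 ± 0.387, Lefty1 at 6.40 ± 0.353 and Acvr2b at 6.06 ± 0.432. The WT ranges of Nodal and Smad7 overlapped, as did those of Inhbb and Lefty1 and of Lefty1 and Acvr2b. In R783H the order kept Tdgf1 (235.4 ± 2.93), Lefty2 (56.9 ± 2.66), Nodal (44.8 ± 3.00), Smad7 (29.8 ± 1.57) and Fst (17.1 ± 1.65) at the top. Lefty1 (10.4 ± 0.312) and Acvr2b (7.20 ± 0.473) then stood above Inhbb (0.718 ± 0.139), and no neighbours in this order overlapped. The lengths are those of the longest GENCODE transcript of each gene, which may not be the one used in these cells.

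**Figure D3:**
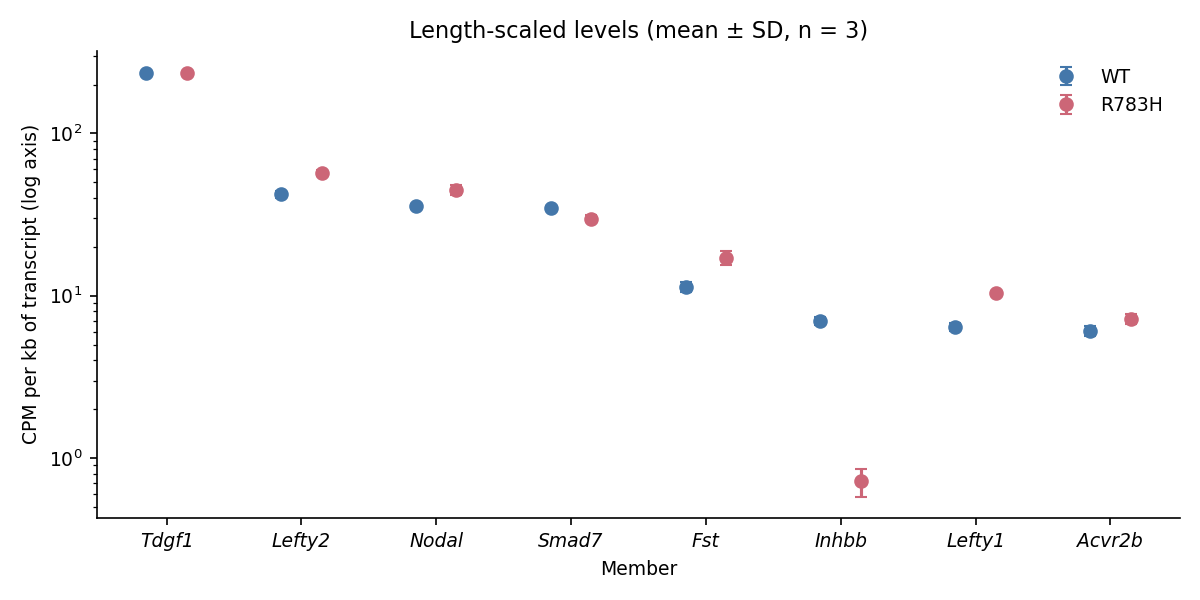
Level of each detected member in CPM per kilobase of transcript, on a log axis (mean ± SD, n = 3 libraries per group), ordered by the WT level. Inhbb drops from sixth to last place, and the first 5 genes keep their order.

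Genes with the most similar profile over the 6 libraries were sought for Inhbb, Nodal and Lefty1, by the root-mean-square difference of centred log2 CPM. For Inhbb the nearest were Cbr3 and Dusp9, at 0.61 and 0.63 log2 units, and no other tested gene with a mean of at least 5 CPM came closer. For Nodal the nearest were Clic1 and Fam43a (0.02 each), and for Lefty1 they were Ciz1 (0.02) and Ablim1 (0.03). The log2 fold changes of these 2 genes beside Inhbb were -2.14 and -2.10. All profiles share the same 6 libraries and the same split into groups.

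Of the 56 other pathway genes 45 had enough counts to test, and they were split: 15 rose and 13 fell in R783H by the same edgeR test, with p-values adjusted over all genes. The called share was 62.2%, near the 64.5% of all genes, and the median log2 fold change was 0.05 beside 0.03 over all genes. With scaling by library size alone the split was 17 and 9 (65.4% of called genes higher, beside 61.2% over all genes). With an offset for transcript length and GC content it was 12 and 15 (44.4% higher, beside 44.9% over all genes). In the reported fit these shares were 53.6% and 52%. Genes named below that fell outside the naming rule, and were added after their values were seen, are Gdf3, Eng, Pcsk6, Trim33, Rnf111, Smurf2, Ppm1a, Pmepa1, Ccn2, Eomes, Tgfbr1, Smurf1, Gdf1, Mstn and Cer1. Beside the overlaps given with single genes, exons of Pcsk6, Tgfbr3 and Smurf2 overlap another gene on the same strand. Those of Furin, Nedd4l, Drap1, Eomes, Junb and Ccn2 overlap a gene on the other strand. Their counts may depend on how shared reads were treated, which is not given in the sources used here.

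**Figure D4:**
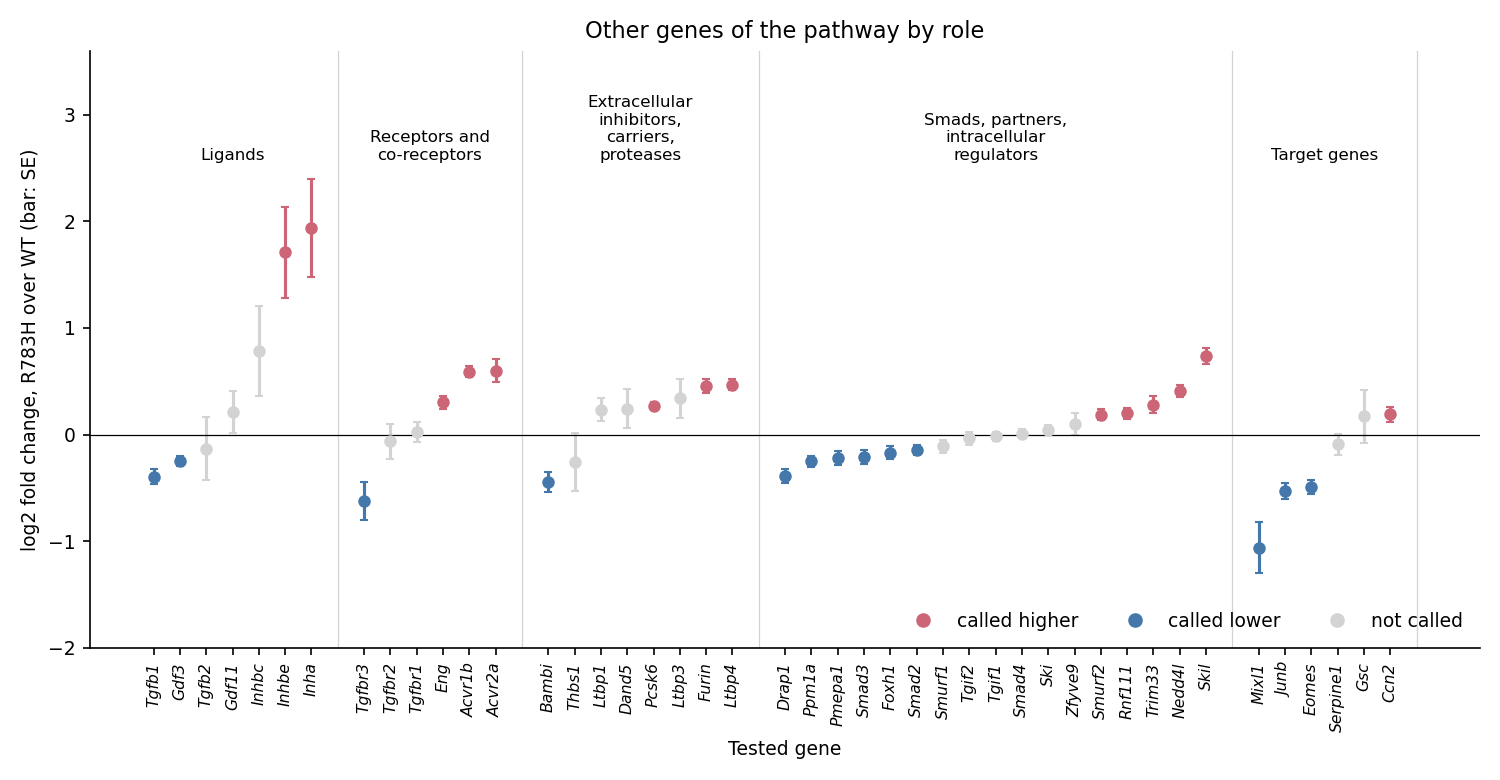
Log2 fold change, R783H over WT, of tested genes of the wider pathway list in 5 role classes, with SE bars; red was called higher, blue lower, grey not called. Both directions occur in each class; Inha and Inhbe, the highest points, rest on few counts.

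Among the other ligands 2 rose and 2 fell of 7 tested, a called share of 57.1% beside 64.5% of all genes. Gdf3, a Nodal-related ligand and the most abundant of them by CPM, fell from 181 ± 3.78 to 152 ± 4.05 CPM (log2 fold change -0.25, SE 0.04, edgeR adjusted p = 3.62e-04). Tgfb1 fell from 28.8 ± 1.57 to 21.9 ± 1.66 CPM (-0.39, SE 0.07, edgeR adjusted p = 5.94e-04). Inha, whose alpha subunit pairs with beta subunits to form inhibins, had 3, 1 and 4 counts in WT (A to C) and 14, 13 and 15 in R783H (A to C). Inhbe had 4, 3 and 4 counts in WT and 23, 12 and 14 in R783H. Both rose by the test (edgeR adjusted p = 0.00335 and 0.00459), but their fold changes rest on very few WT counts. Gdf1 and Mstn had 0 counts in all libraries, which for Gdf1 is uncertain because its exon is shared with Cers1.

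Of 6 receptor and co-receptor genes tested 3 rose and 1 fell (66.7% called, beside 64.5% of all genes). Acvr1b, the type I receptor ALK4 of activin and Nodal, rose from 45.4, 47.9 and 48.8 CPM in WT (A to C) to 69.6, 71.5 and 73.0 CPM in R783H (A to C). The groups stood far apart relative to their spread (log2 fold change 0.59, SE 0.05, edgeR adjusted p = 1.92e-06). Acvr2a, a type II receptor gene like Acvr2b, rose to 15.4 ± 2.15 CPM, from 10.2 ± 0.588 CPM in WT. Its log2 fold change was 0.60 (SE 0.11, edgeR adjusted p = 4.72e-04), and its exons overlap Orc4 on the other strand. The length and GC offset brought Acvr2a to 0.35. Eng, a TGF-beta co-receptor, rose by 0.30 (SE 0.06, edgeR adjusted p = 0.00133), and its exons overlap the antisense-strand gene Fpgs. Tgfbr3, the co-receptor betaglycan, fell by 0.62 (SE 0.18, edgeR adjusted p = 0.0103) with a mean of 3.50 CPM in WT and 2.28 CPM in R783H, and was not called without WT C (edgeR adjusted p = 0.0519). Tgfbr1, the type I receptor of TGF-beta, was not called (mean 43.6 ± 5.63 CPM for R783H, 42.9 ± 3.73 CPM for WT).

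Outside the cell, 3 genes rose and 1 fell of 8 tested (50% called, beside 64.5% of all genes). Ltbp4, which stores latent TGF-beta in the matrix, rose to 310 ± 3.93 CPM, from 224 ± 13.2 CPM in WT (log2 fold change 0.47, SE 0.05, edgeR adjusted p = 8.28e-06). The proteases that cut pro-Nodal and other precursors rose too, Furin by 0.46 (SE 0.07) and Pcsk6 by 0.27 (SE 0.04), with edgeR adjusted p = 9.51e-05 and 1.55e-04. With the length and GC offset Furin was at 0.30. Bambi, a decoy receptor, fell from 11.8 ± 0.573 to 8.67 ± 0.945 CPM (-0.45, SE 0.10, edgeR adjusted p = 0.00176). Cer1, a Nodal antagonist, had 0 counts in all libraries.

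Of the 17 Smads, partners and intracellular regulators, all tested, 5 rose and 6 fell (64.7% called, beside 64.5% of all genes). The Smads themselves differed little. Smad4 had means of 109.6 ± 0.738 CPM (R783H) and 109.1 ± 1.53 CPM (WT), with a log2 fold change of 0.01 (SE 0.04) that was not called and whose sign turned with the scaling. Smad2 fell by 0.15 (SE 0.05), Smad3 by 0.21 (SE 0.07) and Foxh1 by 0.17 (SE 0.06), with edgeR adjusted p = 0.0238, 0.0154 and 0.0268. None of these 3 calls held with scaling by library size alone (edgeR adjusted p = 0.285, 0.103 and 0.198). The Smad2 call was also lost without WT B or WT C (0.0510 and 0.0925 by edgeR). The Foxh1 call was lost without R783H A, R783H C, WT A or WT B (edgeR adjusted p from 0.0715 to 0.102), and with a length and GC offset its log2 fold change was 0.015. Without R783H B the Foxh1 value was -0.26. The offset took Smad2 and Smad3 further down, to -0.45 and -0.36.

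The largest change in this class was in Skil, which encodes SnoN, a repressor of Smad complexes and a known target of them. It rose from 29.1, 30.7 and 32.9 CPM in WT (A to C) to 54.6, 46.2 and 54.1 CPM in R783H (A to C). The groups did not overlap (log2 fold change 0.74, SE 0.08, edgeR adjusted p = 7.46e-06), and the length and GC offset gave 0.46. The ubiquitin ligase gene Nedd4l rose by 0.41 (SE 0.05), and Trim33, Rnf111 and Smurf2, also ubiquitin ligase genes, by 0.28 (SE 0.08), 0.20 (SE 0.05) and 0.18 (SE 0.05). Their edgeR adjusted p ran from 4.27e-05 to 0.00829. Smurf1, a further ubiquitin ligase gene of this class, was not called (-0.11, SE 0.06, edgeR adjusted p = 0.121). None of the 4 called ligase genes was called higher with the length and GC offset, which gave Nedd4l 0.12, Rnf111 0.040, Trim33 -0.060 and Smurf2 -0.000633, and Smurf2 was also lost without R783H A (edgeR adjusted p = 0.0536). Drap1, a co-repressor that restrains Nodal signalling through Foxh1, fell by 0.39 (SE 0.07), the phosphatase gene Ppm1a by 0.25 (SE 0.05) and Pmepa1, a feedback inhibitor, by 0.22 (SE 0.06), with edgeR adjusted p = 4.29e-04, 7.48e-04 and 0.0118. The offset gave -0.17 for Drap1 and -0.55 for Ppm1a. The Pmepa1 call was lost without WT B (edgeR adjusted p = 0.0635) and with scaling by library size alone (0.0895 by edgeR).

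Target genes went both ways, with 2 higher and 3 lower of 7 tested (71.4% called, beside 64.5% of all genes). Eomes and Mixl1, transcription factors of the primitive streak, fell by 0.49 (SE 0.07) and 1.06 (SE 0.24), the latter from a WT mean of only 1.28 CPM. Junb, a transcription factor gene induced by TGF-beta, fell by 0.53 (SE 0.07), and was at -0.29 with the length and GC offset. Adjusted p values of these 3 by edgeR ran from 5.78e-05 to 0.00241. Ccn2 rose by 0.19 (SE 0.07, edgeR adjusted p = 0.0311), but was not called without R783H A, R783H B, WT B or WT C (edgeR adjusted p from 0.0903 to 0.119), with RLE factors (0.0582) or with DESeq2 (0.105).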

How the data were processed

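The authors deposited 1 table of read counts per Entrez gene with a column for each library; the values are whole numbers with differing totals and were used as raw counts. Per the submitters' processing notes, CASAVA 1.4, HISAT2, SAMtools and the build mm10 were used; the counting tool, annotation and strand setting are not given in the sources used here. Libraries were grouped by their titles.

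Symbols and positions came from RefSeq on GRCm38.p6 (25275 of 27179 identifiers matched), transcript lengths from GENCODE M21 and near-identical copies (at least 90% over 300 nt) from BLAST 2.17.0. Genes were filtered with filterByExpr (minimum count 10, minimum total 15), leaving 14199, scaled with TMM and tested with edgeR 4.0.16 in R 4.3.3 (quasi-likelihood test, group as the single term, Benjamini-Hochberg adjustment over all tested genes, threshold 0.05). CPM divide counts by the scaled library size. SE is the log2 fold change over the square root of F. A floor of 3 counts was used. DESeq2 1.42.0 and limma 3.58.1 served as alternatives. The fits were also run on simulated counts, with a pass mark that was lowered after a first result was seen. Far fewer genes were changed there than were called in these data, so that run does not check scaling or calls in a like setting.

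The 9 genes, the wider list and the settings were chosen with earlier results of these data known; the motifs, the ratios between members and the thresholds for copies were chosen after the files were read. The rule for naming genes took all 9; from the wider list Acvr1b, Smad2, Smad3, Smad4 and Foxh1, the 3 largest called changes per role class and any called change of at least 2-fold; and the 2 genes nearest to Inhbb, Inhba, Nodal and Lefty1 with a mean of at least 5 CPM (log2 CPM with a prior count of 2; Inhba could not be used). Every pair of libraries within a group differed by more than sampling noise, so none was treated as a repeat deposit of another, and the labels' replicates were used as such. Reads carry no molecular identifiers, so the floor covers counting error only. A gene of the wider list that the rule would name is not reported here; it is kept in the counts and left out of the plot by role.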

Additional observations from a re-analysis of the deposited data

How the results depend on the processing

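Under 16 alternatives (RLE, upper-quartile or library-size scaling, 2 other filters, DESeq2, limma-voom, a replicate block, equal depth, a length and GC offset, and each library left out) the 7 called members kept their direction, with Inhbb between -3.40 and -3.15; Acvr2b alone lost its call. These are refits of the same libraries for genes chosen with the comparison known, so they describe the processing only. The number of called genes stayed between 8161 and 9882 (the latter without R783H B). The median of the members moved to 0.37 with library size alone, and that of the wider list to 0.13; the latter was 0.11 without a filter (53 genes tested) and -0.056 with the length and GC offset, where 12 genes were higher and 15 lower. The median of all tested genes moved alike, from 0.029 to 0.11 with library size alone, 0.051 without a filter and -0.036 with the offset. The Smad4 fold change turned to -0.015 with RLE factors and DESeq2, -0.016 at equal depth and -0.056 with the length and GC offset, and ran from -0.011 to 0.013 with each library left out. The same offset gave 0.015 for Foxh1, -0.060 for Trim33 and -0.000633 for Smurf2. The cause was not tested. Replicate letters did not pair the libraries: deviations of same-letter libraries correlated at -0.07, 0.00682 and 0.09 across genes, and not every library correlated best with its own letter. With the replicate block 9260 genes were called, against 9152, and 15 and 13 of the wider list as before. Genes under about 1 CPM, such as Inha and Inhbe, rest on few reads and are the least certain.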

Other observations

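The genes around Inhbb on chromosome 1 were looked at after its values were seen. Within 1000 kb on either side 12 genes were tested. Of these 2 were called higher and 6 lower by edgeR's quasi-likelihood test. Of all genes 64.5% were called, 33.5% higher and 30.9% lower. The nearest on either side were Ralb (48 kb away), with a log2 fold change of -0.07 (SE 0.06), and Gli2 (361 kb away), with 0.07 (SE 0.05), and neither was called. The 12 log2 fold changes ran from -1.04 for Steap3 (804 kb away) to 0.18 for Epb41l5 (123 kb away), so none came near the -3.27 of Inhbb. On the side of Ralb, all tested genes from 486 to 804 kb away were called lower. They were Tmem177 (-0.31), Tmem37 (-0.69), Dbi (-0.27), 3110009E18Rik (-0.80) and Steap3. The bounds are the positions of the first and last of these genes, drawn after the calls were seen. Tmem37 and 3110009E18Rik were low, at means of 1.99 and 1.29 CPM in R783H (3.24 and 2.25 CPM in WT). Nearer tested genes on that side were called higher (Epb41l5) or not called. On the side of Gli2, Clasp1 (806 kb away) was called lower (-0.14) and Tfcp2l1 (730 kb away) higher (0.17). The cause of the run on the side of Ralb was not tested.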
